A study of Drosophila melanogaster with 2 samples.

Results

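The cells described here are midgut progenitors that carry RNA of at least 4 of the 7 genes CG30090, CG44085, Dtg, Tsp42Ea, Cyp305a1, Swim and hdly, and are called members. A barcode was a member when it held at least 200 genes, at most 25% of its unique molecular identifiers (UMIs) on mitochondrial genes, at least 1 UMI of esg or N, fewer than 3 UMIs of pros, and UMIs of at least 4 of the 7 rule genes. There were 552 members among 8399 kept barcodes and 10564 barcodes in all. They comprised 215 members of 704 progenitors in the esg[ts]/+ library and 337 of 863 in the esg[ts]/D30A library.

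Intestines of virgin females were profiled by droplet-based single-cell RNA sequencing of transcript 3′ ends, with 1 library per genotype and 27 pooled guts per library. Both genotypes carried esg-GAL4, tub-GAL80[ts] and UAS-GFP, so both had the same progenitor driver, its temperature-sensitive repressor and the reporter, on a chromosome present in 1 copy over + in a w background. The esg[ts]/D30A flies also carried 1 copy of UAS-ImdD30A, an Imd variant that cannot be cleaved, and the esg[ts]/+ flies did not. Flies of both genotypes were moved to 29 °C as adults for 10 days, guts were digested with elastase at 1 mg/ml, and live cells were taken from a density gradient, with no sort for GFP. The driver acts in progenitors as a group, so stem cells and enteroblasts were not separated by it. The comparison of genotypes asks how progenitors differ when the immune deficiency (IMD) pathway is blocked in them. With 1 library per genotype, cells are not replicates and genotype cannot be told apart from library, so no test was run, and every interval below is a 95% interval for counting error only.

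Intestinal stem cells of the adult fly midgut divide to renew the epithelium, and most of their daughters become enteroblasts that mature into enterocytes. Stem cells present the ligand Delta (Dl), which activates the receptor Notch (N) in the daughter, and both cell types contain escargot (esg), a Snail-family repressor of differentiation. In the IMD pathway, peptidoglycan receptors signal through the adaptor Imd and the caspase Dredd to the NF-kappaB factor Relish.

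The libraries held 30383272 UMIs in esg[ts]/+ and 53275921 in the esg[ts]/D30A library, and 144 and 2021 barcodes were removed by the filter. Members were compared with all other progenitors, which meet every condition except the 4 rule genes, and with the other progenitors that held a UMI of Dl, 133 in esg[ts]/+ and 142 in the esg[ts]/D30A library. One barcode of the esg[ts]/D30A library, an other progenitor without Dl, held 697628 UMIs, or 9.06% of the UMIs of that comparison group. It held 254971 UMIs of CG14645, 91839 of CG34324 and 79548 of CG3906, and ratios to all other progenitors in that library were set partly by it. The median log2 ratio of members to all other progenitors was -0.01 in esg[ts]/+ and 0.21 in the esg[ts]/D30A library over 4038 genes. The same median against the other progenitors with Dl was -0.03 and -0.09, and lists of genes are therefore described against both groups. Of 132 barcode sequences found in both libraries, 0 were members in both, while 4 members of esg[ts]/+ and 23 of esg[ts]/D30A had a barcode that also occurred in the other library.

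Members made up 30.5% of progenitors in esg[ts]/+ (27.2 to 34.1) and 39.0% in esg[ts]/D30A (35.8 to 42.4). As a share of kept barcodes they were 5.25% (4.58 to 5.97) and 7.84% (7.05 to 8.68). They nevertheless held 16.6% and 24.01% of the UMIs of kept barcodes. The median member had 18724 UMIs and 2094 genes in esg[ts]/+, against 5846 UMIs and 1138 genes in other progenitors. In esg[ts]/D30A the median member had 26811 UMIs and 2791 genes, against 4560 UMIs and 1066.5 genes. Depth ranged from 1559 to 155393 UMIs among members of esg[ts]/+ and from 1821 to 207554 among those of esg[ts]/D30A. The other progenitors with Dl lay between these groups, with medians of 9126 and 12472.5 UMIs. Mitochondrial genes took a median of 1.14% of a member's UMIs in esg[ts]/+ and 3.63% in the esg[ts]/D30A library, near the 1.17% and 3.94% of other progenitors. High doublet scores marked 5 members (2.33%) and 11 members (3.26%), a smaller share than the 7.57% and 7.79% of other progenitors.

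Because a gene is detected more readily in a deep cell, the rule and the depth of a cell are tied. Progenitors with none of the rule genes had median depths of 1023 UMIs in esg[ts]/+ and 1193 in the esg[ts]/D30A library. Those with all 7 had 45481.5 and 61072 UMIs. The depth increased with each further rule gene in both libraries, and the plot of depth by number of rule genes shows no step at the limit of 4. Just inside the limit, progenitors with exactly 4 rule genes had medians of 11 and 13.5 UMIs of those genes. Just outside it, those with 3 had medians of 7 and 9. As a level, the summed rule genes reached 857 and 676 CPM (counts-per-million of the summed UMIs of a class) with 4 genes detected, and 648 and 365 with 3.

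**Figure D1:**
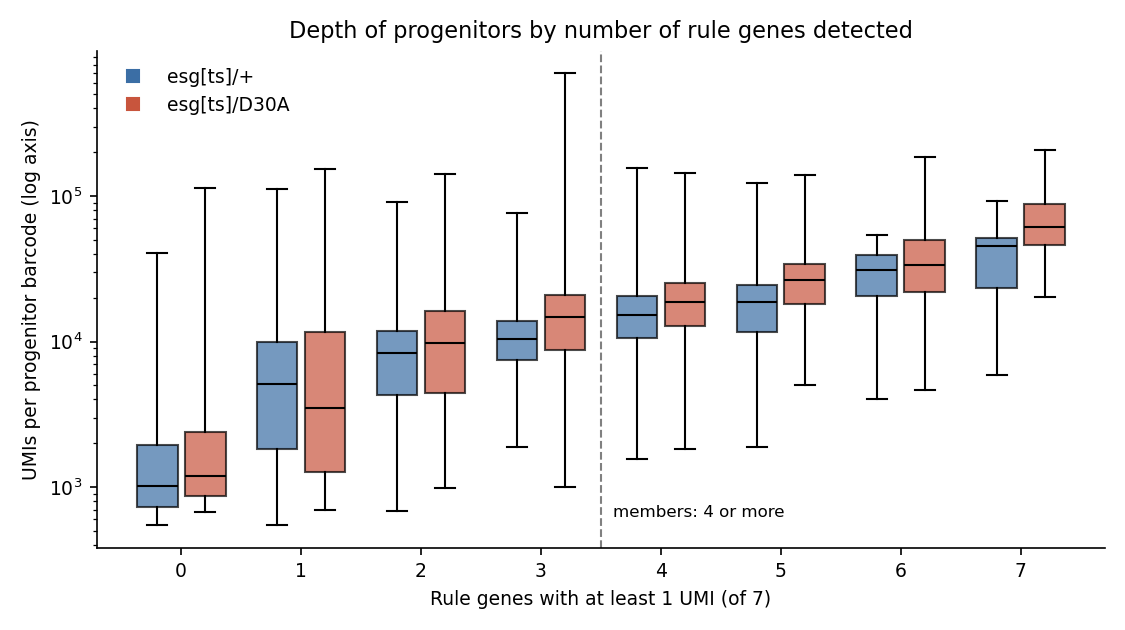
UMIs per progenitor barcode (log axis) against the number of the 7 rule genes detected, for esg[ts]/+ (blue) and esg[ts]/D30A (red); boxes give quartiles and the median, whiskers the lowest and highest barcode, and the dashed line the limit for members. Median depth increased from 1023 and 1193 UMIs with no rule gene to 45481.5 and 61072 with all 7, and the highest whisker is the esg[ts]/D30A barcode of 697628 UMIs.

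To set depth aside, progenitors with at least 5000 UMIs were thinned at random to 5000 UMIs each. After thinning, 56 of 465 progenitors of esg[ts]/+ (12.0%, 9.23 to 15.4) and 116 of 579 of esg[ts]/D30A (20.03%, 16.8 to 23.5) still had at least 4 rule genes. The share was thus higher in the esg[ts]/D30A library also at equal depth. Before thinning, those cells had median depths of 18718.5 and 26996 UMIs, against 12379 and 20658 for the remaining progenitors. Of the 465 and 579 progenitors, 202 and 326 were members before thinning. Ratios given below with the rule applied to thinned cells therefore count former members among the other progenitors. Those ratios use all UMIs of the cells, and their comparison group differs from the main one. Among these cells, all of at least 5000 UMIs by choice, the 74 esg[ts]/D30A progenitors with none of the genes after thinning had a median original depth of 30400 UMIs.

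Ribosomal protein genes accounted for much of the RNA of members. The 92 genes took 59.8% of the members' UMIs in esg[ts]/+ and 54.2% in the esg[ts]/D30A library. All other progenitors gave 52.3% and 36.5%, and those with Dl 58.3% and 44.8%. The median log2 ratio over 23 ribosome biogenesis genes with enough UMIs was 0.28 and 0.69 against all other progenitors, and -0.02 and 0.23 against those with Dl. Thinned to 5000 UMIs, the median member had 983 genes in esg[ts]/+ and 1080 in the esg[ts]/D30A library, slightly fewer than the 1041 and 1135 of other progenitors with Dl, so members were not richer in gene number at equal depth.

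Levels of the rule genes are given as a description, since these genes chose the cells. Tsp42Ea, a tetraspanin of the 42E gene cluster, was found in 99.5% of members in esg[ts]/+ and 99.4% in the esg[ts]/D30A library, at 357 and 407 CPM. It was also present in 63.4% and 49.4% of other progenitors, which makes it the least selective of the 7. Swim, which encodes a secreted protein that binds Wingless, was found in 92.1% and 86.1% of members, at 227 and 196 CPM, against 63.4 and 37.7 in other progenitors. Dtg, known as a target of Dpp signalling in the embryo, was found in 73.0% and 84.3% of members. Its level was 77.2 CPM in esg[ts]/+ members and 130 in those of esg[ts]/D30A, and 29.4 and 23.3 in other progenitors. Cyp305a1, a cytochrome P450, was found in 77.7% and 84.0% of members at nearly one level, 80.6 and 80.3 CPM.

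The remaining rule genes were found in fewer members. CG44085 was in 69.8% and 71.8% of members at 97.9 and 133 CPM, and hdly in 52.6% and 50.4% at 152 and 118. CG30090, which is named Erasp in a later annotation, was the rarest of the 7 in members, in 27.0% of them in esg[ts]/+ and 48.4% in the esg[ts]/D30A library. The level of CG30090 was 20.5 CPM in members of esg[ts]/+ and 85.3 in those of esg[ts]/D30A. In the other progenitors with Dl it had 0 UMIs in esg[ts]/+ and 5.25 CPM in esg[ts]/D30A. Most cells held few molecules of these genes: the median member had 7 UMIs of Tsp42Ea and 3 of Swim in esg[ts]/+, and 0 of CG30090 in both libraries. A few members held many, up to 90 and 183 UMIs of Swim and 84 and 141 of hdly.

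Rule genes were found together unevenly. In esg[ts]/D30A, CG44085 was detected in 85.3% of members with CG30090 and in 59.2% of those without. In esg[ts]/+ the same shares were 75.9% and 67.5%. Detection of hdly went the other way, in 47.3% of esg[ts]/+ members with CG44085 and 64.6% of those without, and in 44.2% and 66.3% in esg[ts]/D30A. A member must reach 4 genes by some combination, so that one gene replaces another by construction, and nothing is read from these shares.

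**Figure D2:**
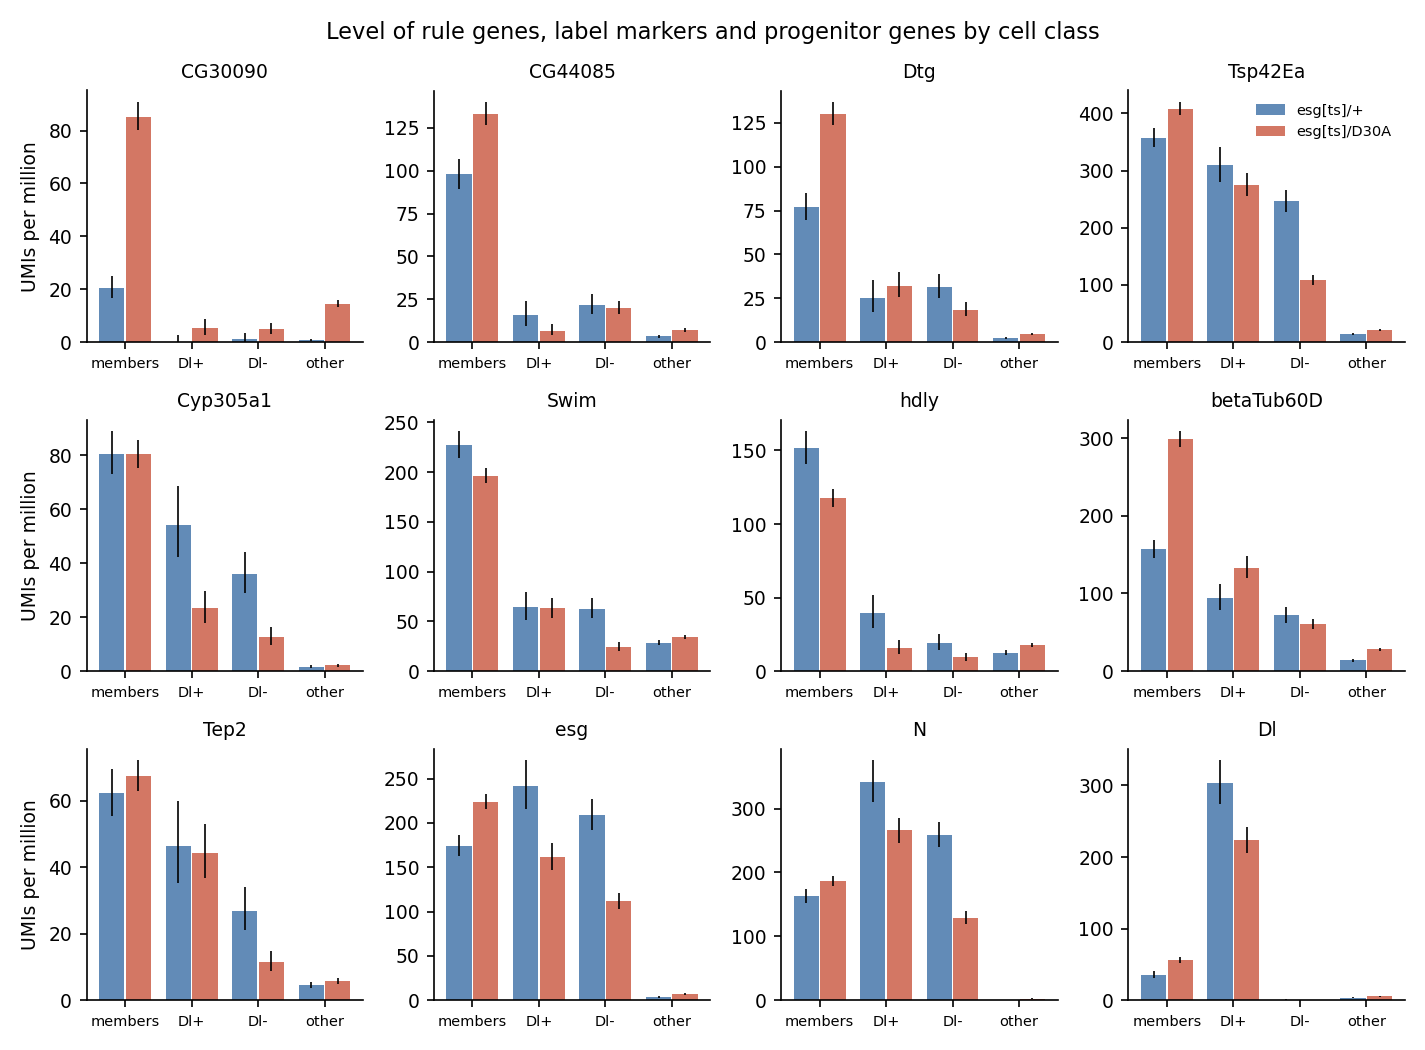
CPM of 12 genes in members, other progenitors with Dl (Dl+), other progenitors without Dl (Dl-) and other kept barcodes, for esg[ts]/+ (blue) and esg[ts]/D30A (red); bars start at 0 and lines are 95% counting intervals. The rule genes are highest in members by selection, and betaTub60D reaches 157 and 299 in members. Dl is higher in the Dl+ class than in members, also by selection, and no order is read for esg and N, which are part of the rule.

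The 2 markers of the label that the rule did not use were also higher in members. betaTub60D, a beta-tubulin isotype known from muscle and the embryonic nervous system, was found in 70.2% of members at 157 CPM in esg[ts]/+, and in 83.7% at 299 in esg[ts]/D30A. Against all other progenitors its log2 ratio was 0.99 (0.80 to 1.18) and 1.80 (1.68 to 1.92), and against those with Dl 0.74 (0.46 to 1.03) and 1.17 (1.01 to 1.33). Thinned to 5000 UMIs, betaTub60D was found in 48.0% of members (41.0 to 55.1) and 64.4% (58.95 to 69.6). The shares in other progenitors with Dl were 26.9% and 38.8%, and in the other kept barcodes, most of which should lack it, 3.47% and 5.02%. Its share at equal depth increased with the number of rule genes seen after thinning, from 19.1% with none to 55.4% with at least 4 in esg[ts]/+, and from 21.6% to 69.8% in esg[ts]/D30A. When the rule was applied to the thinned cells, the log2 ratio of betaTub60D was 0.72 in esg[ts]/+ and 0.52 in the esg[ts]/D30A library.

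Tep2, a secreted thioester-containing protein of innate immunity, was at 62.2 CPM in esg[ts]/+ members and 67.3 in those of esg[ts]/D30A. Its log2 ratio to all other progenitors was 0.90 (0.60 to 1.21) and 1.56 (1.32 to 1.80). At equal depth it was found in 24.3% of esg[ts]/+ members (18.5 to 30.8) and 22.1% of other progenitors with Dl (14.6 to 31.3), shares whose intervals overlap. In esg[ts]/D30A the shares were 27.0% (22.2 to 32.2) and 13.8% (8.09 to 21.4), with counting intervals that did not overlap. Cells are not replicates, so overlap of such intervals is no test, here or below. Thus 7 of 7 label markers were higher in members in both libraries, but 5 of them were used to choose the cells. The markers were also listed with earlier results of these data known, so this count tests nothing.

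Members carried the genes that define progenitors. Both esg and N were found together in 183 of 215 and 305 of 337 members. For esg the level was 174 CPM in esg[ts]/+ and 224 in the esg[ts]/D30A library, against 220 and 129 in all other progenitors. N was at 163 and 186, against 286 and 176. Every progenitor had to hold a UMI of esg or N, so that their CPM is fixed in part by the rule, most of all in the shallower other progenitors, and no order is read from these levels. Over the alternatives tried, the log2 ratio in esg[ts]/D30A ranged from -0.41 to 1.24 for esg and from -0.77 to 0.56 for N. Dl was lower in both libraries, at 35.7 and 55.9 CPM against 98.7 and 77.4. It was found in 72 members (33.5%) of esg[ts]/+ and 140 (41.5%) of esg[ts]/D30A. Thinned to 5000 UMIs, Dl remained in 11.4% (7.36 to 16.6) and 20.9% (16.6 to 25.7) of members, against 2.31% and 1.22% of the other kept barcodes.

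Of 11 progenitor markers, 10 had enough UMIs for a ratio, meaning at least 100 in members and other progenitors together in each library. In esg[ts]/+, 0 were at least 2-fold higher in members than in all other progenitors and 1 was at least 2-fold lower. In esg[ts]/D30A, 3 were higher and 0 lower. Among all genes, 0.843% of 4034 were higher and 7.44% lower in esg[ts]/+, and 4.19% of 4038 higher and 11.5% lower in esg[ts]/D30A. The median log2 ratio of the list was -0.41 and 0.70, and against the other progenitors with Dl -0.63 and 0.15. The list holds esg and N, which are part of the rule, and Dl, which chose that last group, so these values are partly fixed by selection. Sox21a, a transcription factor needed for enteroblasts to differentiate, was at 78.6 CPM in esg[ts]/+ members and 126 in esg[ts]/D30A members, with log2 ratios to other progenitors with Dl of 0.00 and 0.87. klu, a zinc finger repressor of enteroblasts, was at 172 and 156, with log2 ratios of 0.23 and 0.61 in the same comparison. At equal depth klu was found in 56.9% and 50.9% of members, and in 42.3% and 38.8% of other progenitors with Dl, with intervals that overlap.

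Notch target genes were abundant in members. E(spl)mbeta-HLH, a basic helix-loop-helix repressor, was found in 97.2% and 97.3% of members at 512 and 475 CPM. Thinned to 5000 UMIs, it was in 86.1% (80.6 to 90.6) and 84.4% (79.9 to 88.1) of members, and in 83.7% and 76.7% of other progenitors with Dl. E(spl)malpha-BFM, of the Bearded family, was at 268 and 288, with log2 ratios to other progenitors with Dl of -0.998 (-1.13 to -0.86) and -0.26 (-0.37 to -0.16). Of 14 Notch pathway genes with enough UMIs, 1 was at least 2-fold higher and 1 lower than in all other progenitors in esg[ts]/+, and 3 higher and 0 lower in esg[ts]/D30A. Among all genes, 0.843% were higher and 7.44% lower in esg[ts]/+, and 4.19% and 11.5% in esg[ts]/D30A. Against the other progenitors with Dl, 0 Notch pathway genes were higher and 3 lower in esg[ts]/+, and 1 higher and 1 lower in esg[ts]/D30A. Among all genes there, 3.25% were higher and 3.84% lower in esg[ts]/+, and 1.63% and 9.04% in esg[ts]/D30A. The list medians were -0.41 and 0.39 in the first comparison and -0.51 and -0.17 in the second. The list holds Dl, which chose the cells of the second comparison group, and N, which is part of the progenitor rule. These counts are therefore partly fixed by the choice of cells.

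Enteroendocrine and enterocyte genes were lower in members than in the other kept barcodes, while small muscle, hemocyte and tracheal sums were higher. The 15 enteroendocrine markers together took 0.0020% and 0.0051% of the members' UMIs, against 0.517% and 0.854% in the other kept barcodes. The gene pros had 7 and 18 UMIs in all members. The rule limits pros, which is in this list, and kept barcodes that exceed the limit fall among the other kept barcodes. These values are therefore partly fixed by the choice of cells. All other progenitors, under the same limit, gave 0.0888% and 0.0624%, and those with Dl 0.0029% and 0.0218%. The limit is a number of UMIs, so it was stricter for the deeper members. The 25 enterocyte markers took 1.30% and 0.876% of the members' UMIs, against 13.1% and 8.09% in the other kept barcodes. Of 23 enterocyte genes with enough UMIs, 20 in esg[ts]/+ and 19 in the esg[ts]/D30A library were at least 2-fold lower in members than in all other progenitors, and 0 were higher. Among all genes, 7.44% and 11.5% were lower. The enterocyte gene Jon65Aiv had medians of 20 and 13 UMIs per member, near the 19 and 11 of the far shallower other kept barcodes. Against the other progenitors with Dl this did not hold in esg[ts]/+, where 5 were higher and 7 lower with a median log2 ratio of -0.15 and where the summed share of those cells was 1.28%. In esg[ts]/D30A, 0 were higher and 15 lower in that comparison, with a median of -1.27 and a summed share of 2.30%. Among all genes in that comparison, 3.25% were higher and 3.84% lower in esg[ts]/+, and 1.63% and 9.04% in esg[ts]/D30A. Per cell the enterocyte share ranged up to 29.0% and 36.4% with medians of 0.544% and 0.315%. In esg[ts]/+ 2 members were above 5%, and in esg[ts]/D30A 4, and they held 58.98% and 66.5% of the enterocyte UMIs of all members. Visceral muscle markers took 0.0489% and 0.0560% of the members' UMIs, against 0.0310% and 0.0404% in the other kept barcodes and 0.0474% and 0.0501% in the other progenitors with Dl. Hemocyte markers took 0.0102% and 0.0106%, against 0.0054% and 0.0062% in the other kept barcodes. Tracheal markers took 0.00076% and 0.0012%, against 0.00021% and 0.00028%. All other progenitors gave 0.00064% and 0.0026% for the tracheal markers, and those with Dl 0.0012% and 0.0060%, so the esg[ts]/D30A members were below both. In esg[ts]/+ members, 9 of 14 muscle, 6 of 10 hemocyte and 4 of 6 tracheal genes had 0 UMIs, so these sums rest on few genes. The 4 cardia markers took 0.213% of the members' UMIs in esg[ts]/+, above the 0.0928% of all other progenitors, and 0.0408% in esg[ts]/D30A, below 0.138%. The cardia share was uneven, with a median per member of 0.0092% and 0.0030% and a highest member at 7.28% and 6.90%. Without the members above 5% enterocyte UMIs, 23 genes (rule genes included) were at least 2-fold higher and 283 lower than in all other progenitors in both libraries. Between genotypes, 572 were then higher and 99 lower. The part of the other cell types or of free RNA in the results was not tested.

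Of 4034 genes, 20 were at least 2-fold higher in members than in all other progenitors in both libraries (0.496%) and 252 were at least 2-fold lower in both (6.25%). Against the other progenitors with Dl, 3.25% of genes were higher and 3.84% lower in esg[ts]/+, and 1.63% and 9.04% in esg[ts]/D30A. In that comparison 25 of 4033 genes were higher in both (0.620%) and 65 lower (1.61%). Against other progenitors at least as deep as the 10th percentile of members, 33 were higher in both (0.818%) and 260 lower (6.45%). By library that comparison gave 1.26% higher and 7.56% lower in esg[ts]/+, and 6.93% and 11.9% in esg[ts]/D30A. The cells were chosen on 7 of these genes, and genes that vary with those follow, so the lists describe the members and test nothing. The rule genes CG30090, CG44085, Dtg, Swim and hdly are among the 20 higher in both libraries, fixed there by the choice of cells. With the rule applied to cells thinned to 5000 UMIs, the genes higher in both libraries were 6 and those lower 84. The rule genes CG44085, Dtg and hdly are among the 6, and none of the 20 genes described next is. The 20 genes described next by what they do are not the same set. They have the highest lower value of the 2 ratios, leaving out rule genes, esg and N, and not all reach 2-fold in both libraries.

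GstD2, a detoxifying glutathione S-transferase, had the highest ratio. Its level was 251 CPM in esg[ts]/+ members and 129 in those of esg[ts]/D30A, against 18.2 and 9.74 in all other progenitors, with log2 ratios of 3.79 and 3.73. It was carried by a minority of cells, 33.0% and 25.8% of members, and 1 member held 240 UMIs in esg[ts]/+ and 1 held 346 in esg[ts]/D30A. The share with a UMI in the other kept barcodes was 3.98% and 3.17%. At equal depth GstD2 was found in 17.8% (12.8 to 23.8) and 11.0% (7.86 to 14.96) of members, and in 7.69% and 2.59% of other progenitors with Dl. Its level was 376 and 173 CPM in the deepest members and 98.9 and 27.9 in the shallowest, and with the rule applied to thinned cells the log2 ratio was -0.54 in esg[ts]/+ and 1.17 in the esg[ts]/D30A library. GstD2 belongs to a cluster of similar genes, between which reads may be shared.

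Cytoskeletal, membrane and guidance genes formed part of the list. unc-104, a kinesin motor that carries synaptic vesicle precursors in neurons, was found in 54.9% of members at 138 CPM in esg[ts]/+, and in 83.7% at 275 in esg[ts]/D30A. Its log2 ratio was 1.22 (1.00 to 1.44) and 1.94 (1.81 to 2.08), and at equal depth it was found in 35.1% and 58.9% of members against 21.2% and 34.5% of other progenitors with Dl. Sema1a, a transmembrane semaphorin of axon guidance, was at 21.7 and 29.7 CPM, with log2 ratios of 1.12 and 1.46. The metalloprotease gene Meltrin was at 62.8 and 54.1, with log2 ratios of 1.34 and 1.26. CalpB, a calcium-dependent protease, was at 100.5 CPM in esg[ts]/+ and 250 in the esg[ts]/D30A library, with log2 ratios of 0.91 and 1.74. The phospholipid scramblase scramb1 had log2 ratios of 0.97 and 1.23. A second tetraspanin of the rule gene's cluster, Tsp42Ee, had log2 ratios of 2.20 and 1.14 against all other progenitors and 1.30 and 0.21 against those with Dl, and reads may be shared within that cluster. With the rule applied to thinned cells unc-104 had 0.88 and 0.94, Sema1a 1.11 and 0.18, and Meltrin 0.82 and 1.13. In the same setting CalpB had 0.52 and 0.81, scramb1 0.22 and 0.49, and Tsp42Ee 1.13 and 0.76.

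Metabolic and lysosomal genes formed another part. Npc2a, a sterol-binding protein of the lysosome, was in 84.7% and 93.2% of members at 234 and 410 CPM. Its log2 ratio was 1.16 (1.00 to 1.33) and 1.45 (1.36 to 1.54) against all other progenitors and 0.93 and 0.84 against those with Dl. At equal depth Npc2a was in 58.9% (51.8 to 65.8) and 73.9% (68.8 to 78.6) of members, against 15.99% and 23.3% of the other kept barcodes. Ant2, a mitochondrial ADP/ATP carrier, had log2 ratios of 1.12 and 1.59, which became -0.31 and 0.0020 with the rule applied to thinned cells. SpdS, a spermidine synthase, had 0.92 and 0.91. Shmt, a serine hydroxymethyltransferase of one-carbon metabolism, had 0.88 and 1.03. With the rule at equal depth, SpdS had -0.0030 and -0.34 and Shmt -0.27 and 0.43. In that setting these 3 metabolic genes were not higher in both libraries, but its comparison cells included members of the main rule. Prx2540-1, a peroxiredoxin with near-identical neighbouring copies, had 0.88 and 2.66, and 1 member of esg[ts]/D30A held 150 UMIs of it. With the rule at equal depth Prx2540-1 had 0.22 and 1.91, and Npc2a 0.75 and 1.13.

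CG30154 followed GstD2 in the ranking. It was in 53.5% and 65.9% of members at 74.6 and 112 CPM, with log2 ratios of 1.65 (1.32 to 1.99) and 1.997 (1.79 to 2.21). Thinned to 5000 UMIs it was in 22.8% (17.2 to 29.2) and 33.4% (28.3 to 38.8) of members, against 9.62% and 7.76% of other progenitors with Dl and 11.8% and 17.6% of the other kept barcodes. CG6006 had log2 ratios of 1.34 and 2.78, CG6357 0.97 and 1.69, CG10283 0.92 and 1.74, and rgn 1.01 and 1.05. O-fut2, which adds fucose to thrombospondin repeats, had 0.96 and 1.04. With the rule at equal depth CG30154 had 0.59 and 0.95, CG6006 0.69 and 1.10, and CG6357 1.07 and 0.85. In the same setting CG10283 had 0.40 and 0.64, rgn 0.37 and 0.33, and O-fut2 0.050 and 0.47. Against the other progenitors with Dl, each of the 20 genes was above 0 in both libraries, from 0.21 for Tsp42Ee in esg[ts]/D30A to 3.52 for GstD2 in esg[ts]/+.

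**Figure D3:**
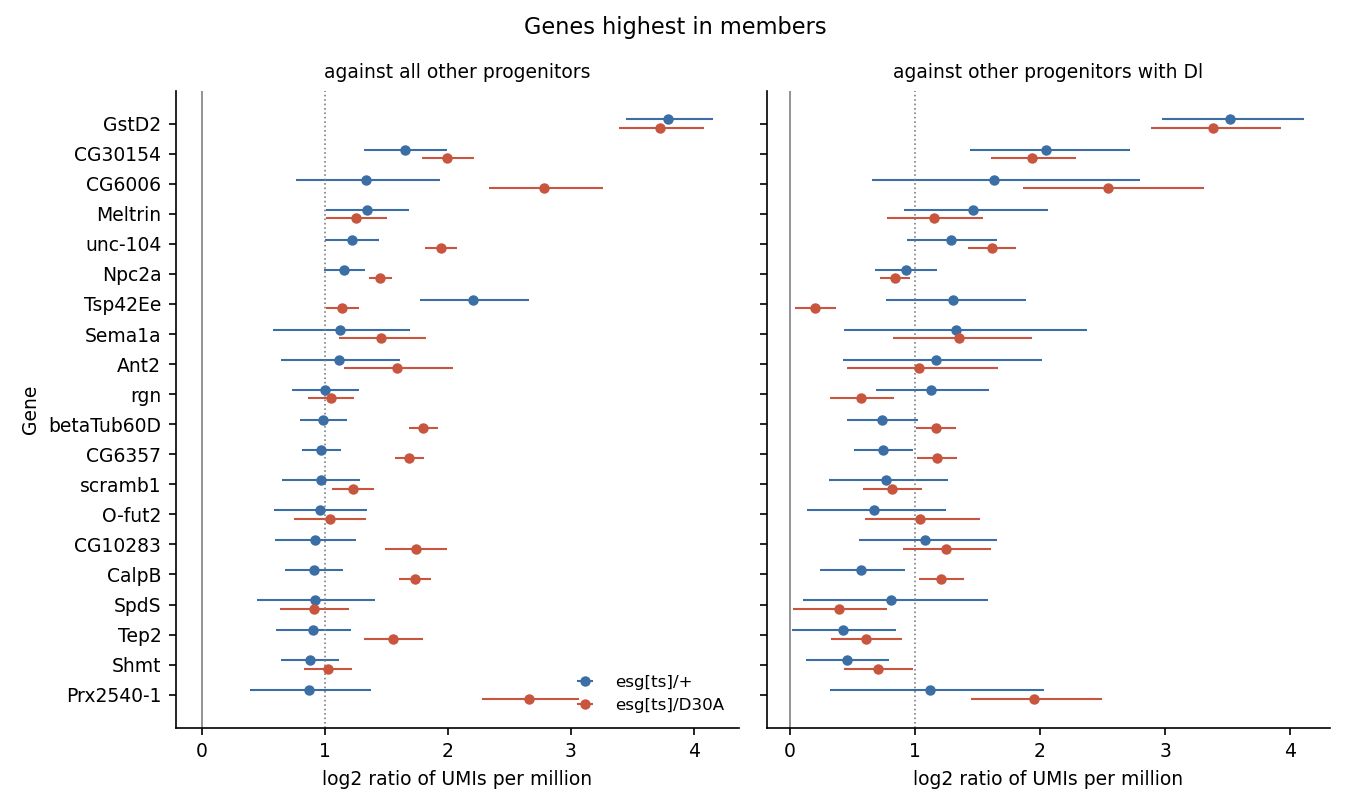
Log2 ratio of CPM in members over all other progenitors (left) and over other progenitors with Dl (right) for the 20 highest genes in esg[ts]/+ (blue) and esg[ts]/D30A (red), with 95% counting intervals; the dotted line marks 2-fold. GstD2 stands apart at 3.79 and 3.73, and ratios to the progenitors with Dl are mostly smaller, as for betaTub60D at 0.74 and 1.17.

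**Figure D4:**
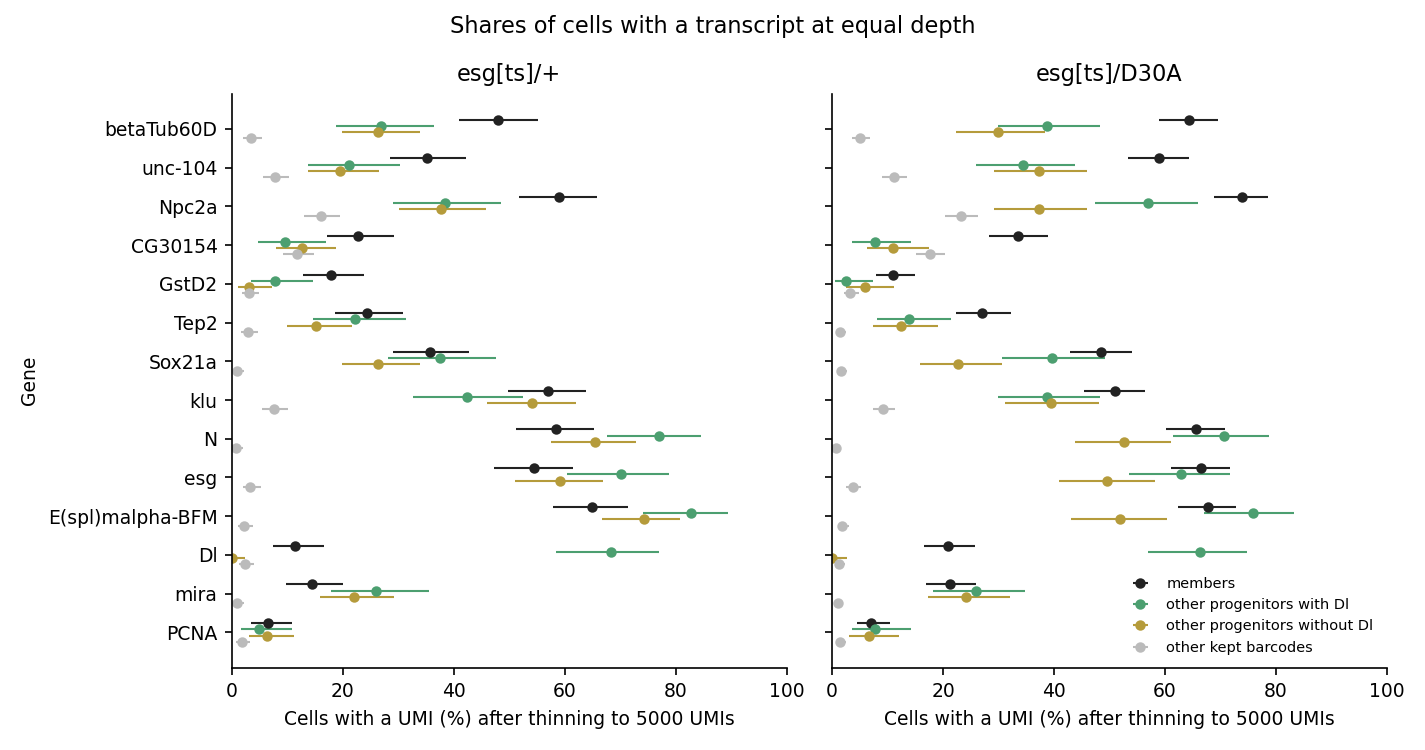
Percent of cells with a UMI of 14 genes after each cell was thinned to 5000 UMIs, in members, other progenitors with Dl, other progenitors without Dl and other kept barcodes of each library, with 95% Clopper-Pearson intervals. betaTub60D is in 48.0% and 64.4% of members and in 26.9% and 38.8% of the other progenitors with Dl, while the shares of Sox21a and PCNA in those classes have intervals that overlap.

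The genes lowest in members were mostly abundant in a few comparison cells. CG13285 had 1 and 8 UMIs in all members, and 88.7% of its UMIs in other progenitors of esg[ts]/+ came from 1 barcode. EbpIII had 5 and 41 UMIs in members and Idgf6, an imaginal disc growth factor of the chitinase-like family, 1 and 4. The yolk protein gene Yp3 had 3 and 13 UMIs in members, and 99.1% and 96.5% of its UMIs in other progenitors were in 1 barcode of each library. The lysozyme gene LysB was in 99.5% and 100% of members at 365 and 355 CPM, below the 16258 and 8869 of the other kept barcodes and the 2936 and 6587 of other progenitors. LysB was also found in 97.1% and 97.4% of the other kept barcodes, at a median of 7 UMIs per barcode in both libraries, near the 7 and 9 UMIs of the far deeper members. Lysozyme genes resemble one another, so the gene behind these reads is uncertain.

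Signalling and growth lists had few members past 2-fold, to be read against the 0.843% and 4.19% of all genes that were higher than in all other progenitors, and the 7.44% and 11.5% that were lower. Of 13 Dpp pathway genes with enough UMIs, 1 was at least 2-fold higher and 1 lower in esg[ts]/+, and 1 higher and 0 lower in esg[ts]/D30A, with medians of -0.04 and 0.51. Against the other progenitors with Dl the Dpp list had medians of -0.23 and -0.10. The 12 Wingless pathway genes had 1 higher in esg[ts]/+ and 2 in the esg[ts]/D30A library, with 0 lower, and the same counts against the other progenitors with Dl. Their medians were -0.09 and 0.36 in the first comparison and -0.25 and -0.18 in the second. The first list holds the rule gene Dtg and the second the rule gene Swim, so these counts are partly fixed by the choice of cells.

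The 8 JAK-STAT genes had 0 and 1 higher and 0 lower than in all other progenitors, with medians of 0.02 and 0.55, and medians of -0.24 and 0.23 against those with Dl. upd3, a cytokine ligand of that pathway, was at 49.3 and 40.6 CPM in members. Its log2 ratio was 0.60 (0.29 to 0.92) and 1.49 (1.19 to 1.80) against all other progenitors, and 0.24 (-0.19 to 0.70) and 1.03 (0.62 to 1.47) against those with Dl. Of the 12 insulin and growth genes, 0 were past 2-fold in either comparison, with medians of -0.04 and 0.45 against all other progenitors and -0.08 and 0.24 against those with Dl. Among 8 cell cycle genes, 0 were higher and 1 lower in esg[ts]/+, and 0 and 0 in esg[ts]/D30A, in both comparisons. Medians of the cell cycle list were -0.20 and 0.48 in the first and -0.39 and -0.33 in the second. PCNA, the DNA polymerase clamp, was found in 6.44% and 7.06% of members at equal depth and in 4.81% and 7.76% of other progenitors with Dl. Of 16 integrin and matrix genes, 5 in esg[ts]/D30A but 0 in esg[ts]/+ were at least 2-fold higher than in all other progenitors, with medians of 0.79 and 0.23. Against those with Dl, 0 and 0 were higher, with medians of 0.35 and 0.06.

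Members were not uniform. They were divided by depth into tertiles within each library, which also divides them by the number of rule genes, from a median of 4 in the shallowest to 6 in the deepest. N fell from the shallowest to the deepest tertile, from 356 through 188 to 107 CPM in esg[ts]/+ and from 363 through 220 to 138 in esg[ts]/D30A. E(spl)malpha-BFM did likewise, with 538, 367 and 161 in esg[ts]/+ and 516, 384 and 205 in esg[ts]/D30A. For esg the values were 238, 205 and 145, and 320, 266 and 188. A cell with few UMIs had to hold at least 1 UMI of esg or N to be a member, so the order of their levels is partly fixed by the rule. betaTub60D went the other way, with 112, 157 and 167 in esg[ts]/+ and 223, 290 and 317 in esg[ts]/D30A. Ribosomal protein genes took 59.4%, 62.9% and 58.5% of UMIs in the tertiles of esg[ts]/+, with no steady order.

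Members with CG30090 were deeper than those without it, with medians of 24323 and 17353 UMIs in esg[ts]/+ and 36799 and 22263 in esg[ts]/D30A. They also carried less Dl, at 13.1 against 47.9 CPM in esg[ts]/+ and 33.5 against 91.9 in esg[ts]/D30A. CG30154 was higher in them, at 103.7 against 58.9 and 143 against 62.6. Members with Dl held less Npc2f, at 26.6 CPM against 327 in those without Dl in esg[ts]/+ and 9.09 against 80.4 in esg[ts]/D30A. However, 84.4% and 79.0% of all Npc2f UMIs of members were in 1 member of each library.

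The genes whose depth-scaled levels went most closely with the summed rule genes over the 552 members were ranked by Spearman's rho among 3211 genes, as a description. The highest were zip (0.41), which encodes non-muscle myosin heavy chain, caps (0.37), shep (0.36), CG3638 (0.35), Fim (0.34), an actin bundler, baz (0.34), a polarity protein, and the insulin receptor gene InR (0.32). The most negative were Gdh (-0.28), RpLP2 (-0.25) and RpL4 (-0.24), and Dl had -0.22. All points share 2 libraries and both measures depend on depth. The correlations were weak, and those within a library differed, as for caps with 0.19 in esg[ts]/+ and 0.46 in the esg[ts]/D30A library.

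Between genotypes, imd itself was looked at first, because the transgene encodes an Imd variant. It had 41 UMIs in members of esg[ts]/+ and 176 in those of esg[ts]/D30A, or 8.18 and 14.4 CPM, with a log2 ratio of 0.82 (0.32 to 1.34). In all other progenitors it was at 13.0 and 15.2, with a log2 ratio of 0.22. Whether transcripts of the transgene are counted under imd was not tested, and the small difference does not check the labels.

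Within members, 594 of 6404 genes with at least 50 UMIs over both libraries were at least 2-fold higher in esg[ts]/D30A (9.28%) and 102 were at least 2-fold lower (1.59%). In all other progenitors, 656 of 6408 were higher (10.2%) and 209 lower (3.26%). The median log2 ratio over 6423 genes was 0.15 in members and -0.01 in other progenitors. Members' ratios are therefore to be read against 0.15. With that median subtracted, 451 genes were higher and 138 lower, and every ratio given below between 0 and 0.15 turns negative.

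The 7 rule genes differed between genotypes in size and sign. These genes chose the members, and other progenitors had fewer than 4 of them, so the ratios in both groups depend on the rule. Members were also deeper in esg[ts]/D30A, with a median of 26811 UMIs against 18724 in esg[ts]/+. The ratios are given as a description. CG30090 was higher in esg[ts]/D30A members, by a log2 ratio of 2.05 (1.76 to 2.36), and by 2.72 in other progenitors, where it had few UMIs. Dtg was higher by 0.75 (0.59 to 0.92) in members, while other progenitors had -0.34. CG44085 was higher by 0.44, and Tsp42Ea by 0.19, near the median of all genes. Cyp305a1 had -0.0046, Swim -0.21 (-0.31 to -0.11) and hdly -0.36 (-0.49 to -0.24). For betaTub60D the ratio was 0.93 (0.82 to 1.04) in members and 0.12 in other progenitors, and for unc-104 1.00 (0.88 to 1.12) and 0.27. Tep2 had 0.11, within its counting interval of 0 (-0.08 to 0.31). Whether members and other progenitors differed in these ratios was not tested.

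Among IMD pathway genes, PGRP-SD, a secreted peptidoglycan sensor, was higher in esg[ts]/D30A members. It had 50 UMIs in 13.95% of members of esg[ts]/+ and 869 UMIs in 37.7% of those of esg[ts]/D30A, or 9.97 and 71.1 CPM. The log2 ratio was 2.83 (2.42 to 3.27), and 2.58 without the member of each library that held the most UMIs. pirk, an inhibitor of the peptidoglycan receptor PGRP-LC, was at 284 and 438 CPM, with a log2 ratio of 0.63 (0.54 to 0.71). At equal depth pirk was in 55.9% and 65.0% of members, against 30.3% and 42.0% of the other kept barcodes. Rel had 0.15 and PGRP-LC -0.16, and the receptor PGRP-LE was at 23.1 and 16.8 CPM with -0.46. The amidase gene PGRP-SC2 had 2.70, but 70.9% of its UMIs in esg[ts]/D30A were in 1 member, and without the top members the ratio was 0.97. In all, 3 of 23 pathway genes with enough UMIs were at least 2-fold higher in esg[ts]/D30A and 0 lower, with a median of 0.38. Among all genes in members, 9.28% were higher and 1.59% lower. No antimicrobial peptide gene reached 100 UMIs in members and other progenitors together in both libraries.

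In esg[ts]/D30A members, E(spl)m3-HLH and Myc were higher, while the lists they belong to had medians nearer to that of all genes. E(spl)m3-HLH, a target of Notch, was at 61.4 CPM in 58.1% of esg[ts]/+ members and 163 in 87.5% of esg[ts]/D30A members. Its log2 ratio was 1.41 (1.24 to 1.59), against 0.11 in other progenitors, and it ranged from 1.19 to 1.44 over the alternatives tried. At equal depth the share of members was 32.2% (25.8 to 39.1) and 53.4% (47.8 to 58.9). Myc, a driver of cell growth, was at 334 and 779 CPM, with a log2 ratio of 1.22 (1.15 to 1.30), against 0.46 in other progenitors. The ratio was -0.11 (-0.18 to -0.04) for E(spl)mbeta-HLH and 0.10 (0.01 to 0.20) for E(spl)malpha-BFM. With fewer UMIs, E(spl)m7-HLH had 0.35 (-0.40 to 1.15) and E(spl)mgamma-HLH -0.41 (-0.84 to 0.04). Of 19 Notch pathway genes 2 were at least 2-fold higher and 0 lower, with a median of 0.22, and of 17 insulin and growth genes 5 were higher and 0 lower, with a median of 0.43. These counts stand beside 9.28% of all genes higher and 1.59% lower in members. Tor had 22 and 121 UMIs and a log2 ratio of 1.17 (0.51 to 1.90), Rheb 74 and 401 UMIs and 1.15, and chico 34 and 182 UMIs and 1.13.

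Among stem cell genes, mira, a cargo of asymmetric division, was at 25.3 CPM in esg[ts]/+ members and 47.3 in esg[ts]/D30A members, a log2 ratio of 0.90 (0.62 to 1.19), and Dl had 0.65 (0.41 to 0.89). Both signs turned when the rule was applied at equal depth, to -0.46 for mira and -0.55 for Dl. esg had 0.37 and Sox21a 0.68 (0.52 to 0.85), and klu had -0.14. The Sprouty inhibitor of EGFR signalling, sty, was at 290 and 523 CPM with 0.85, and the integrin subunit gene scb at 70.6 and 148 with 1.07. Hsc70-4, a constitutive chaperone, was at 1263 and 2755 CPM, with 1.13 (1.09 to 1.16). Of 27 cell cycle genes, 4 were at least 2-fold higher and 0 lower, with a median of 0.34, and of 16 integrin and matrix genes 1 was higher and 0 lower, with a median of 0.56. The shares over all genes in members were 9.28% higher and 1.59% lower.

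Some genes were lower in esg[ts]/D30A members. Xrp1, a transcription factor of stress and cell competition, was at 1159 and 727 CPM, a log2 ratio of -0.67 (-0.72 to -0.62), and it had -1.09 in other progenitors. GstD2 had -0.96 (-1.07 to -0.86), which became 0.48 with the rule at equal depth. The Dpp pathway repressor brk was at 51.0 and 27.9 CPM with -0.87. Of the genes lowest in esg[ts]/D30A, CG12057 had 399 UMIs in 68.4% of esg[ts]/+ members and 78 UMIs in 17.8% of esg[ts]/D30A members, with a log2 ratio of -3.64. Its level in the other kept barcodes was 1734 and 360 CPM, far above the 79.6 and 6.38 of members, and its shares there were 56.9% and 17.7%, like those of members. CG42365 was at 93.5 and 11.0 CPM in members, with a log2 ratio of -3.08 (-3.37 to -2.80) in members and -2.56 in other progenitors. CG12868 was at 74.97 and 17.2, with -2.13 and -1.72. Of the 15 lowest genes, 12 were still at least 2-fold lower without the top member of each library, and 6 had over 60% of their esg[ts]/+ UMIs in 1 member.

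**Figure D5:**
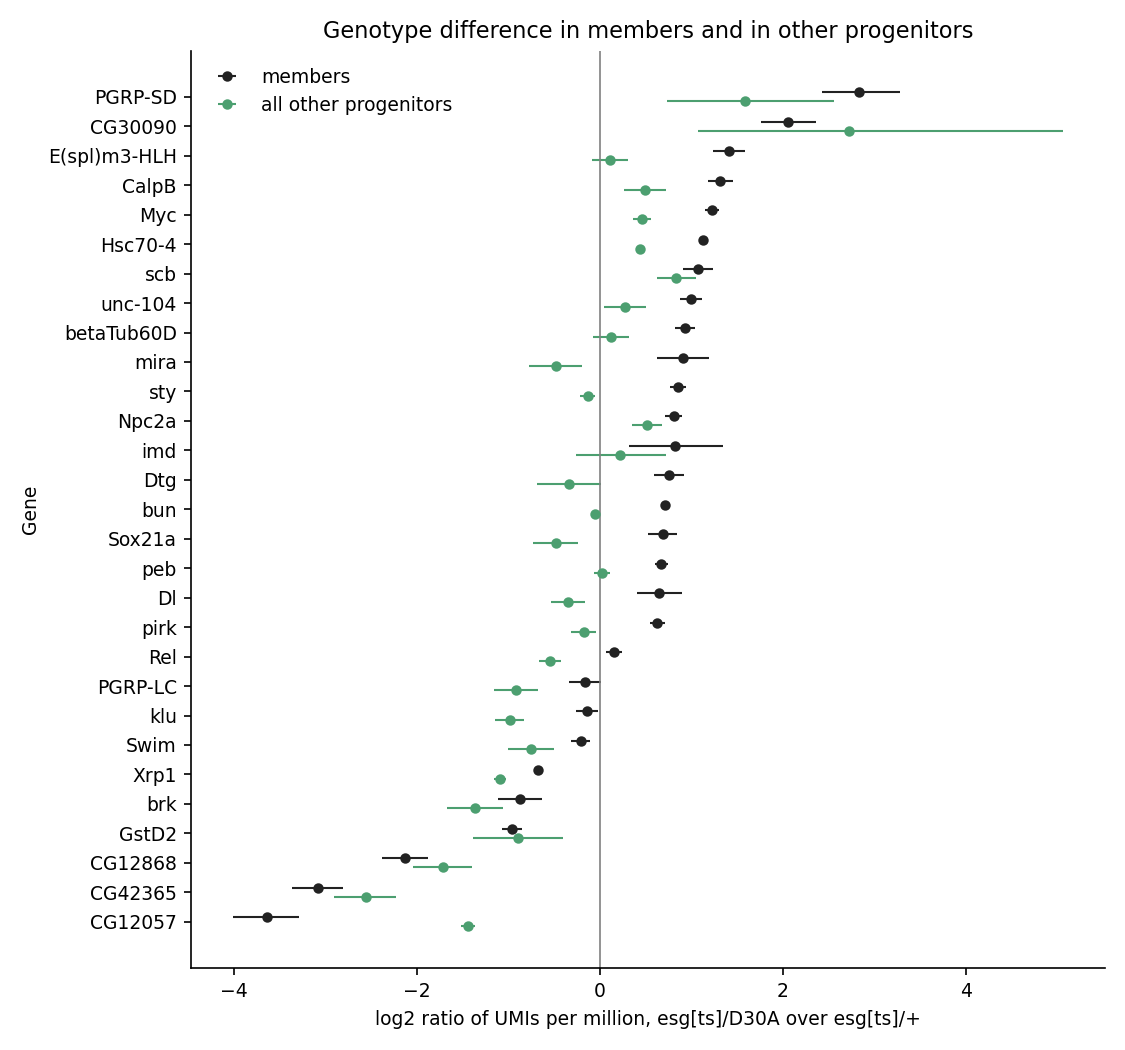
Level in esg[ts]/D30A relative to esg[ts]/+ (log2 ratio of CPM) for 29 genes in members (black) and in all other progenitors (green), with 95% counting intervals and 1 library per genotype. PGRP-SD lies at 2.83 and E(spl)m3-HLH at 1.41 in members, CG42365 at -3.08 and CG12057 at -3.64.

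The 15 genes highest in esg[ts]/D30A members were mostly those of single cells. For 11 of them over 90% of the esg[ts]/D30A UMIs were in 1 member, and 3 members of 85270, 65623 and 119627 UMIs held 5, 4 and 2 of these genes. Only 6 of the 15 were still at least 2-fold higher without the top member. Some of the 15 were found across cell classes. CG14645 was found in 46.0% of members of esg[ts]/+ and 100% of those of esg[ts]/D30A, and in 36.4% and 97.8% of the other kept barcodes. CG3906 was found in 17.7% and 98.5% of members and 14.5% and 94.7% of other kept barcodes. CG14125 was found in 0.465% and 44.2% of members and in 0.383% and 41.2% of other kept barcodes. These shares were close in members and in the much shallower other kept barcodes, and the part of free RNA in them was not tested. The summed levels of copper cell markers were higher in esg[ts]/D30A members for 5 of 5 genes, with log2 ratios of 4.08 for Vha100-4 and 3.74 for CG5767, while CG5767 was found in 88.8% and 89.6% of members and in 83.1% and 82.1% of other kept barcodes. A few members carried these sums, with 34.9% of the CG5767 UMIs of esg[ts]/D30A members in 1 member and up to 8.93% of the UMIs of a member on the list. The median member was lower in esg[ts]/D30A, with 0.0114% of its UMIs on the list against 0.0152% in esg[ts]/+.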

How the data were processed

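The deposited values were raw counts of UMIs per gene (17737 genes) and barcode for 2 libraries, made by the authors. The submitters' processing notes name Cell Ranger 3.0 and Seurat 3.1.1. The genome build and annotation are not given in the sources used here. The values were whole numbers, and barcodes below the limits used here were present. The rule genes, the members and the gene lists were chosen with earlier results of these data known. For each class of cells in a library, the UMIs of a gene were added up and scaled to CPM. Ratios have exact conditional binomial intervals and shares Clopper-Pearson intervals, at 95% and for counting error only. No correction for free RNA was made. Fold limits were 2, with at least 100 UMIs in members and other progenitors together in each library, or 50 UMIs in members of both libraries together for genotypes. A count of 0 has a floor of 3 counts, and no fold is given against it.

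Cells were thinned at random to 600 UMIs or, chosen after seeing the data, 5000 UMIs. At 5000 UMIs, 13 and 11 members were too shallow and left out, as were 29 and 26 other progenitors with Dl, 197 and 247 without Dl, and 2875 and 2621 other kept barcodes. Scrublet scores (scanpy 1.11.5) ranked barcodes, 0.8% per 1000 barcodes were marked, 140 and 218 in all, and none were removed except in an alternative. Genes named are the rule genes, the label's markers, listed genes, the 20 highest and 20 lowest of 3206 and 4029 genes by the less extreme of the 2 ratios (25% of members for the highest), and the 15 highest and 15 lowest between genotypes among 4097 genes with at least 200 UMIs. Ratios were tested on simulated counts. Calculations used scipy 1.17.1 and numpy 2.4.6 with pandas 2.3.3 under Python 3.11.15, and plots matplotlib 3.10.9.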

Additional observations from a re-analysis of the deposited data

Results flagged for a closer look

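For 3 named genes the log2 ratio of members to other progenitors had opposite signs in the libraries, and the difference was not tested. CG33109 was at -5.14 in esg[ts]/+ and 2.63 in the esg[ts]/D30A library, and 97.0% of the UMIs in esg[ts]/D30A members were in 1 member. Est-6 was at -3.17 and 4.47, with 98.6% in 1 member. Peritrophin-15a was at 1.33 and -1.8, with 93.8% of the UMIs in esg[ts]/+ members in 1 member.

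Barcodes that the comparisons did not use also carried the rule genes. Of the kept barcodes outside the progenitor definition, 12 in esg[ts]/+ and 23 in the esg[ts]/D30A library had at least 4 rule genes, of which 10 and 18 had no UMI of esg or N and 2 and 9 had at least 3 UMIs of pros. Their median depths were 13018 and 91689 UMIs, and 1 and 2 had high doublet scores. A further 5 barcodes of esg[ts]/D30A removed by the filter met the rest of the rule, and 0 in esg[ts]/+.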

How the results depend on the processing

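No paired analysis was possible because there was 1 library per genotype. The share of progenitors that were members was 46.7% and 53.3% (esg[ts]/+ and esg[ts]/D30A) with at least 3 rule genes, or 329 cells in esg[ts]/+, 17.9% and 27.0% with at least 5, or 126 cells in esg[ts]/+, and 36.1% and 47.6% with a barcode filter of 500 genes and 10% mitochondrial UMIs. It was 33.3% in esg[ts]/D30A with no barcode filter. With the rule applied to cells thinned to 5000 UMIs it was 11.6% (46 cells) and 21.4% (101 cells). Rule genes included, the genes at least 2-fold higher in both libraries were 6 with that thinned rule, 39 against other progenitors without Dl, 33 against deep ones and 38 with a minimum of 20 UMIs. The genes lower in both were 84, 65 against other progenitors with Dl, and 442 with a minimum of 20 UMIs. Between genotypes, 332 genes were higher with the thinned rule and 266 with a minimum of 200 UMIs, and 159 and 59 were lower with minimums of 20 and 200 UMIs. The share of members with betaTub60D was 6.51% and 10.1% at 600 UMIs, 0.930% and 1.19% with at least 2 UMIs there, 48.0% and 64.4% at 5000 UMIs, and 70.2% and 83.7% without thinning. The cause of these shifts was not tested beyond the fewer UMIs or cells of each setting.

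Signs turned for GstD2 (-0.54) and Ant2 (-0.31) against other progenitors of esg[ts]/+ with the thinned rule, a setting whose other progenitors include members of the main rule. Between genotypes they turned with at least 5 rule genes for CG12310 (-0.57), CG6337 (-0.89), Est-6 (-0.57), CG33258 (-0.19), Peritrophin-15a (2.03), Jon65Aiii (0.0021), Npc2f (0.93) and Peritrophin-15b (2.64), with the thinned rule for CG33109 (-0.022) and CG33258 (-0.44), and without the top member for CG6337 (-0.60). Of the named 2-fold ratios, 40 of 42 to other progenitors and 26 of 35 between genotypes kept their sign under every alternative run. Leaving out the deepest other progenitor, the members with over 5% enterocyte UMIs, or thinning to 5000 UMIs were chosen after seeing the data, and the first 2 gave 21 and 23 genes higher in both libraries in place of 20. Depth limits rare transcripts most: a share of 0 among 215 or 337 cells limits cells with a UMI, not expression.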
